A study of Rattus norvegicus with 9 samples.

Results

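The genes described here are 35 enzymes, regulators and transporters of glycolysis, gluconeogenesis and the pentose phosphate pathway, chosen by symbol from a fixed list and measured by RNA sequencing in rat ileum. Of these, 34 have a row in both of the deposited tables, out of 17120 rows read per table, and 33 reached the mean of 1 FPKM required for a test. FPKM counts fragments per length of transcript and per mapped fragments, so levels of different genes can be compared. Pgd, an enzyme of the oxidative pentose phosphate branch, is not analysed here, and Eno2, the neuronal enolase, is listed at 0 in every library. By role, 14 of the 35 genes belong to glycolysis, 2 regulate it, 6 act on the fate of pyruvate, 7 act in gluconeogenesis or transamination, and 6 in the pentose phosphate pathway.

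The 9 labelled samples are ileum from the rat strain Otsuka Long-Evans Tokushima fatty, an obese and diabetic strain without a working cholecystokinin receptor, collected 1 month after surgery. The labels name 3 groups of 3: a sham operation, Roux-en-Y gastric bypass (RYGB, which leads food from a small stomach pouch into the jejunum) with FDG increased, and RYGB with FDG decreased. FDG is read here as the labelled glucose analogue fluorodeoxyglucose, which the labels abbreviate. All groups share the strain, and the labels give no age, sex or unoperated control, and leave unsaid whether replicates are separate animals. The p-values therefore cover the spread of these samples alone, which may be technical.

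Glycolysis splits glucose to pyruvate, which lactate dehydrogenase turns to lactate or which enters the mitochondrion through pyruvate dehydrogenase, an enzyme switched off by the pyruvate dehydrogenase kinases. Gluconeogenesis runs the path in reverse with its own enzymes at the irreversible steps, and the pentose phosphate pathway draws off glucose 6-phosphate for NADPH and ribose. The small intestine absorbs glucose, burns much glutamine, and is one of the few organs that carry the enzymes to release glucose.

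Several libraries stood apart before any comparison. Both tables hold 3 FDG-increased columns, of which a pair is common to them and the other is not, so that 12 columns stand for 10 different libraries and 4 are FDG-increased. One FDG-increased library thus belongs to the sham table alone, which sets FDG-increased against sham ileum. Another belongs to the RYGB table alone, which sets FDG-decreased against FDG-increased ileum. Sham replicate 1 differed from the other 2 sham libraries in intestinal markers. Its 5 measured distal ileum markers summed to 195.6 FPKM, against 8712 and 11890 in the other sham libraries and 5740 to 24580 in the RYGB libraries, and none of them was at 0 throughout. Its 5 measured markers of the proximal intestine summed to 10720 FPKM, against 2251 and 2315 in the other sham libraries and 1378 to 7961 after RYGB. Of the distal markers Fabp6, which carries bile acids, had 22.6 FPKM there, and lactase (Lct), a proximal brush border enzyme, at 253 FPKM. The label of ileum is thus not matched by the markers of that library, and results that rest on it are given with and without it. The other sham libraries had high sums of adipocyte markers. The 9 measured genes summed to 500.7 FPKM in sham replicate 2 and 169.4 in replicate 3, against 82.9 in replicate 1 and 49.7 to 119.6 after RYGB. Most of the sums of replicates 2 and 3 was Fabp4, at 329 and 111 FPKM. Cfd, Lipe and Pparg in replicate 3 and Pparg in replicate 2 lay within the RYGB range. Cidec and Lipe were higher in replicate 1 than in replicate 3. Both RYGB libraries numbered 3 had low sums of T and NK cell markers. These were 26.7 FPKM (FDG decreased) and 18.2 FPKM (FDG increased), against 33.9 to 101.1 in all other libraries. In macrophage markers they had 52.0 and 41.4 FPKM against 85.5 to 333.4 in the others. Cd3g and Cd14 did not go with these sums. In the same order, Cd3g stood at 14.829 and 8.196 FPKM and Cd14 at 14.403 and 17.298 FPKM. These values lay inside the range of the other libraries. Cd3g was most of the T and NK cell sum in the FDG-decreased library. In Cd2 and Nkg7 the libraries numbered 3 overlapped with sham replicate 2. All other markers of both lists were lower in both libraries numbered 3 than in every other library. The sum of FPKM per library ran from 465697 to 864511, read depth is unknown, and in this bulk tissue fewer cells of a type and less RNA per cell cannot be told apart.

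Of the list, transcripts of glycolysis enzymes and of lactate dehydrogenase were the most abundant. On the scale of the sham table, Gapdh, the glyceraldehyde 3-phosphate dehydrogenase, had the highest mean of the 10 libraries, 915 FPKM. It was followed by Ldha, the muscle-type lactate dehydrogenase subunit, at 606 FPKM, Eno1, the widely expressed enolase, at 396, Aldoa, an aldolase, at 347, and Tpi1, triosephosphate isomerase, at 290. These means include sham replicate 1, where Ldha stood at 1962.5 FPKM. The medians of the 10 libraries kept the order, at 919 FPKM for Gapdh, 448 for Ldha, 360 for Eno1, 358 for Aldoa and 267 for Tpi1. The phosphofructokinase subunits and their regulators were far lower. Pfkp, the platelet-type phosphofructokinase, had a mean of 61.0 FPKM, Pfkl, the liver type, 20.9, and Pfkm, the muscle type, 4.34. Pfkfb2 and Pfkfb3, which make the phosphofructokinase activator fructose 2,6-bisphosphate, had means of 14.3 and 6.84 FPKM. Among the pentose phosphate genes Taldo1 (transaldolase) and Tkt (transketolase), which swap carbon units between sugar phosphates, led with 204 and 182 FPKM. Gluconeogenic genes were expressed in all libraries, with Pck1, the cytosolic phosphoenolpyruvate carboxykinase, at a mean of 110 FPKM and Fbp2, a fructose-bisphosphatase, at 90.5. Gpt, the alanine aminotransferase that links alanine to pyruvate, had a mean of 181 FPKM.

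**Figure D1:**
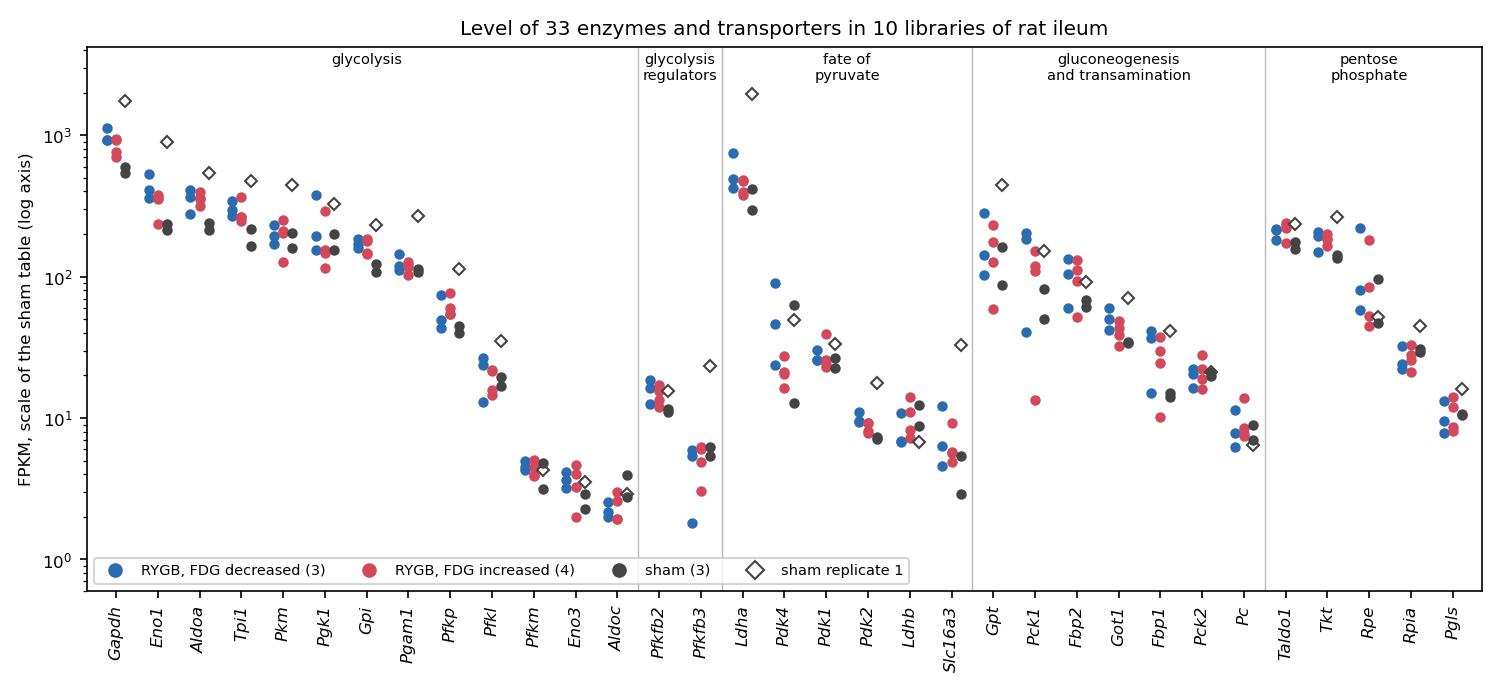
FPKM on a log axis for the 33 tested genes, grouped by role and ordered by mean level, in 10 libraries (blue, 3 FDG-decreased; red, 4 FDG-increased; grey, 3 sham; open diamond, sham replicate 1). RYGB-table libraries were multiplied by 1.0217, and sham replicate 1 lies above the other sham libraries for 27 of the 33 genes.

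For lactate dehydrogenase, enolase, pyruvate kinase, phosphofructokinase and fructose-bisphosphatase the same isozyme led in every library, while the makeup of the kinases of pyruvate dehydrogenase and of the enzymes that make fructose 2,6-bisphosphate varied between libraries. Ldha held 97.1 to 99.7% of the lactate dehydrogenase FPKM, and Eno1 held 98.7 to 99.6% of enolase. Pkm, the widely expressed pyruvate kinase, held 66.1 to 83.5% of pyruvate kinase, the remainder being Pklr, the liver and red cell form. Pfkp held 57.8 to 80.9% of phosphofructokinase, and Fbp2 held 69.0 to 83.5% of fructose-bisphosphatase. Fbp2 is best known as the muscle form and Fbp1 as the liver form. Among the enzymes that make fructose 2,6-bisphosphate, Pfkfb4, which is outside the list, led in most libraries, and Pfkfb2 held 22.4 to 45.4%.

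Shares within a library do not depend on how a library was scaled. The share of Ldhb, the heart-type subunit, in lactate dehydrogenase was 1.62%, 1.36% and 1.43% in the FDG-decreased libraries, replicates 1 to 3. It was 2.05%, 2.25% and 2.83% in the FDG-increased libraries of the same table and 1.90% in that of the sham table alone. All FDG-increased libraries thus lay above all FDG-decreased libraries. The sham libraries spanned both, with 0.341% in replicate 1 and 2.88% and 2.85% in replicates 2 and 3. The share of Pdk4 among the pyruvate dehydrogenase kinases was 43.5%, 49.5% and 28.8% with FDG decreased and 26.6%, 21.4% and 23.3% with FDG increased. Those ranges did not overlap, but the FDG-increased library of the sham table alone, at 31.2%, lay above the lowest FDG-decreased value, and the sham libraries, at 41.7%, 50.4% and 20.1%, spanned the whole range of both. With 3 libraries a group an exact permutation test cannot go below 0.10, so the shares are given as a description.

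**Figure D2:**
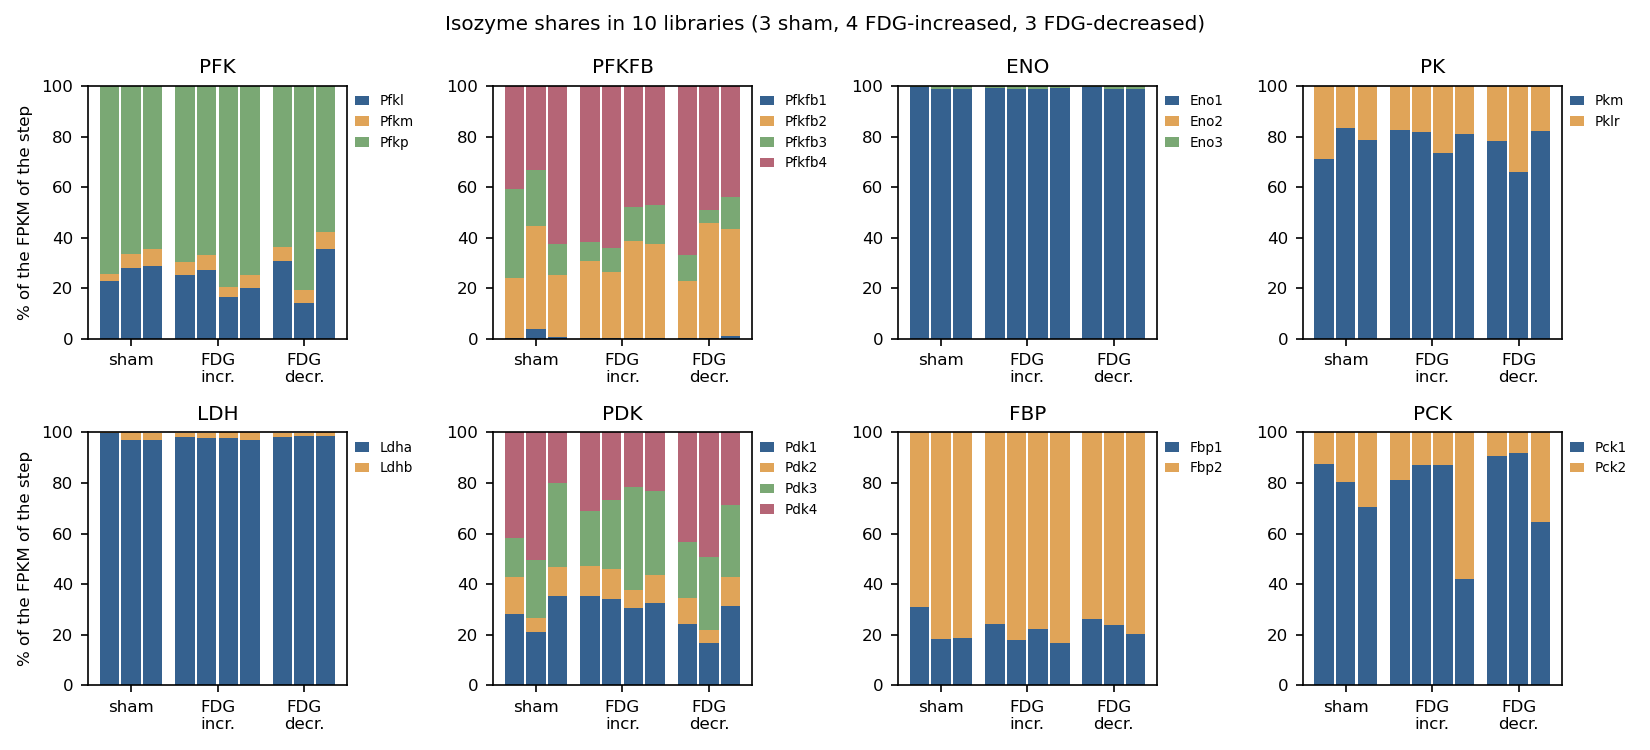
Stacked bars give each isozyme's percent of the summed FPKM of its step in 1 library (3 sham, 4 FDG-increased, of which the fourth is the RYGB-table library not in the sham table, and 3 FDG-decreased). Ldha and Eno1 fill nearly the whole of their steps, while the Pdk4, Pfkfb4 and Pck1 shares vary between libraries.

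FDG-increased RYGB ileum was compared with sham ileum to ask how bypass bears on these genes where FDG was raised. No gene of the list passed the test in either direction. With limma and Benjamini-Hochberg adjustment over 10801 genes, 0 of 33 were called, where 0.0370% of all genes were, and 0 of 33 had an unadjusted p under 0.05, where 7.84% of all genes did. Of the 33 genes, 18 were higher and 15 lower, with a median log2 difference of 0.05 against 0.13 over all genes tested, and single differences from -0.91 to 0.60. That split turned with the scaling: with libraries shifted to the same median it was 12 higher and 21 lower (median -0.08), and with quantile normalization 7 higher and 26 lower (median -0.21).

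The spread within the sham group was the widest feature of this comparison. Ldha stood at 1962.5, 415 and 297.5 FPKM in sham replicates 1 to 3, against 374, 397 and 476 FPKM in the FDG-increased libraries. Sham replicate 1 held 5.51-fold the mean of the other sham libraries, and the groups overlapped. Over all sham libraries the log2 difference was -0.59 (SE 0.632), with a Benjamini-Hochberg adjusted p of 0.856 in limma. Without sham replicate 1 it was 0.23 (SE 0.318), with an adjusted p of 0.848 in limma after the same Benjamini-Hochberg adjustment, so its direction rests on that library. Gapdh stood at 1734, 593 and 537 FPKM in the sham libraries and at 704, 943 and 921 FPKM in the FDG-increased libraries. Its log2 difference was 0.05 (SE 0.469), and 0.59 (SE 0.302) without sham replicate 1. Eno1 stood at 888, 234 and 212 FPKM in the sham libraries and at 359, 377 and 355 FPKM in the FDG-increased libraries. For both genes sham replicate 1 was the highest and the other sham libraries the lowest of the 6. The log2 difference of Eno1 was 0.04 (SE 0.528) with all libraries and 0.70 (SE 0.288) without sham replicate 1. Without it, the Eno1 adjusted p by limma and Benjamini-Hochberg was 0.515. The shift of scaling also turned Eno1 and Gapdh, to -0.09 and -0.08 at the same median.

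Sham replicate 1 was high for most of the list. It was the highest of the 3 sham libraries for 27 of 33 genes, against 38.4% of all genes tested, and the highest of all 6 libraries of the table for 20 of 33, against 16.5%. It held at least 2-fold the mean of the other sham libraries for 16 of 33 genes, against 6.85% of all genes. Slc16a3, a lactate exporter, showed the greatest ratio at 7.87-fold, with 32.9 FPKM against 2.92 and 5.43. Pfkfb3 was 3.98-fold, Gpt 3.55-fold and Fbp1 2.82-fold its level in the other sham libraries. Aldoa, with 542 FPKM against 212 and 240, and Tpi1, with 470 against 218 and 164, were 2.39-fold and 2.46-fold. Pkm, with 441 FPKM against 202 and 160, was 2.44-fold, Pfkp, with 114 against 39.8 and 44.4, was 2.70-fold, and Pgam1, the phosphoglycerate mutase, with 268 against 113 and 108, was 2.43-fold. The high genes thus came from glycolysis, lactate handling and gluconeogenesis together. It was below the mean of the other sham libraries for 4 genes: Ldhb at 0.639 of that mean, Rpe (ribulose 5-phosphate epimerase) at 0.729, Pc, the pyruvate carboxylase that starts gluconeogenesis, at 0.812, and Aldoc, the brain-type aldolase, at 0.873. Outside the list, and chosen after its values were seen, Slc2a2, the basolateral glucose transporter GLUT2, stood at 261 FPKM against 22.5 and 7.01. The low distal and high proximal markers given above move with these values, and their part in them was not tested.

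**Figure D3:**
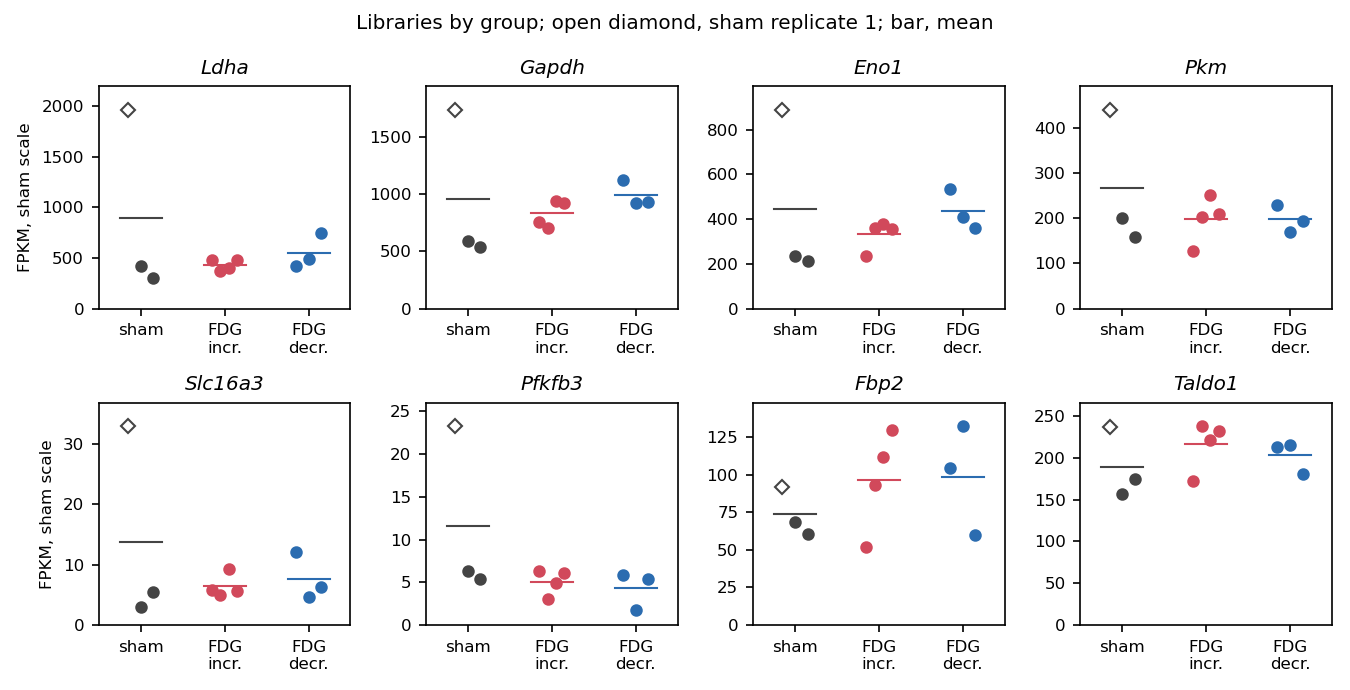
FPKM on the sham scale of 8 of the genes in each library by group (points, libraries; horizontal bars, group means over 3 sham, 4 FDG-increased and 3 FDG-decreased libraries; open diamond, sham replicate 1). For Ldha, Gapdh, Eno1, Pkm, Slc16a3 and Pfkfb3 the diamond lies above all other libraries, and for Fbp2 and Taldo1 it lies within their range.

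Fbp2 was the single gene whose groups did not overlap in the sham table. It stood at 93.4, 112 and 130 FPKM in the FDG-increased libraries, a mean of 112 ± 18.4 (SD, n = 3), and at 91.7, 68.7 and 60.9 FPKM in the sham libraries, 73.8 ± 16.0 (SD, n = 3). The lowest FDG-increased library lay just above sham replicate 1, and the FDG-increased library of the RYGB table alone, at 51.6 FPKM on this scale, lay below all sham libraries. The log2 difference was 0.60 (SE 0.317) and did not pass, with an adjusted p of 0.695 by limma and Benjamini-Hochberg. One of 33 genes lying wholly higher compares with 10.7% of all genes, and 0 of 33 lying wholly lower compares with 4.44%.

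Without sham replicate 1, 26 of 33 genes were higher and 7 lower, with a median log2 difference of 0.29 against 0.15 over all genes. Still 0 of 33 passed the adjusted threshold by limma. At an unadjusted p under 0.05, 4 genes were higher, Eno1, Fbp1, Fbp2 and Pck1, where 7.43% of all genes were, and 0 were lower, where 2.18% were. All 7 genes of gluconeogenesis and transamination were then higher, with a median log2 difference of 0.54, and 11 of 13 glycolysis genes, with a median of 0.47. Fbp1 had a log2 difference of 0.99 (SE 0.291) and an adjusted p of 0.481 by limma with Benjamini-Hochberg adjustment. Its FDG-increased libraries stood at 29.6, 24.5 and 37.1 FPKM, and sham replicates 1 to 3 at 41.2, 15.1 and 14.1. Pck1 had a log2 difference of 0.96 (SE 0.356) and an adjusted p of 0.514 by limma with Benjamini-Hochberg adjustment. Its FDG-increased libraries stood at 118, 151 and 110 FPKM, and sham replicates 1 to 3 at 151, 81.5 and 50.3. In both genes the pair of remaining sham libraries lay below all FDG-increased libraries of the table. The FDG-increased library of the RYGB table alone lay lower again, at 10.22 FPKM for Fbp1 and 13.5 FPKM for Pck1 on the sham scale. Enterocyte markers move with them: without sham replicate 1 all 7 measured ones were higher with FDG increased (median log2 difference 0.91), and with it 6 of 7 (median 0.61). Their summed level was 10020, 5735 and 5573 FPKM in sham replicates 1 to 3, 7611 to 14460 in the FDG-increased libraries of the table, and 4661 in that of the RYGB table alone. None of the enterocyte markers was at 0 throughout. All 7 immediate-early genes were higher as well (median 2.89 without sham replicate 1 and 2.78 with it), and 7 of 8 tested adipocyte markers were lower (median -1.32 without it and -0.98 with it). The part of these lists in the values was not tested.

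The fate of pyruvate and the pentose phosphate genes showed no call. Pdk4 stood at 21.3, 20.3 and 27.7 FPKM with FDG increased and at 49.5, 63.4 and 12.8 FPKM in sham ileum, with the FDG-increased libraries inside the sham range. Pfkfb3 had the lowest log2 difference of the list, -0.91 (SE 0.487), and -0.30 (SE 0.304) without sham replicate 1. Taldo1 stood at 238, 222 and 232 FPKM with FDG increased and 237, 157 and 175 FPKM in sham ileum, so that sham replicate 1 lay among the FDG-increased libraries. Pfkfb2, at 11.99, 13.5 and 17.0 FPKM with FDG increased and 15.6, 11.7 and 10.97 FPKM in sham ileum, also overlapped.

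**Figure D4:**
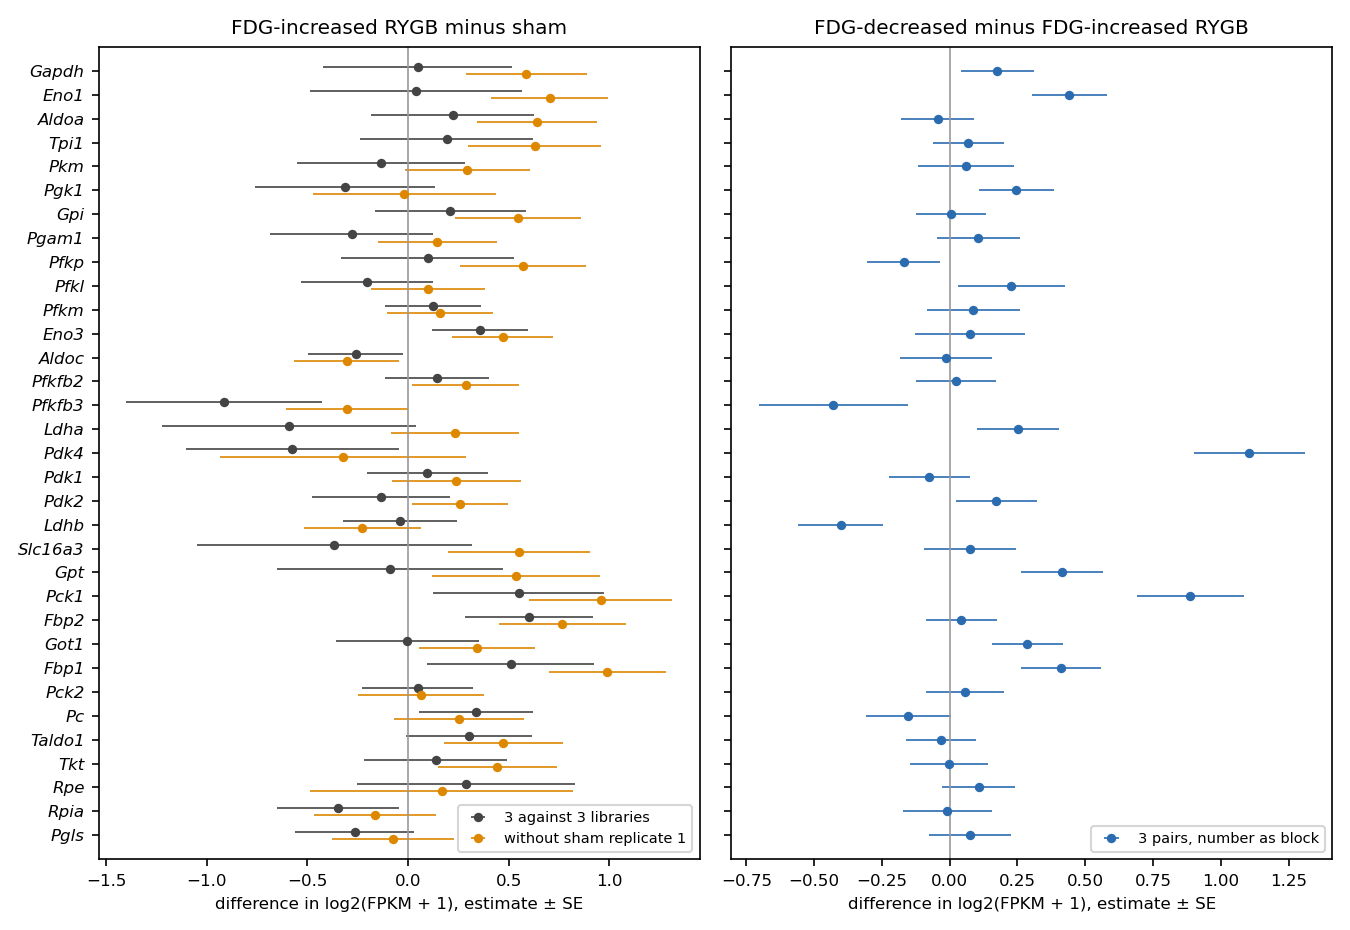
Log2 differences on the log2(FPKM + 1) scale (points) with standard errors (bars) for the 33 tested genes. At left, FDG-increased minus sham with all libraries (grey) and without sham replicate 1 (orange), where 18 and 26 genes lie above 0; at right, FDG-decreased minus FDG-increased with the replicate number as a block, where Pdk4 lies farthest to the right at 1.10.

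FDG-decreased was compared with FDG-increased RYGB ileum to ask how the genes differ between ileum with lower and higher FDG after the same operation. Pdk4, the pyruvate dehydrogenase kinase known for its induction by fasting and fatty acids, was higher with FDG decreased in all 3 pairs of same-numbered libraries. It was the single gene of the list that passed with the replicate number as a block over all 3 pairs. It stood at 45.5, 87.9 and 23.1 FPKM in FDG-decreased replicates 1 to 3, a mean of 52.2 ± 32.9 (SD, n = 3). In FDG-increased replicates 1 to 3 it stood at 19.9, 27.1 and 16.1 FPKM, 21.0 ± 5.604 (SD, n = 3). The third FDG-decreased library lay within the FDG-increased range, so the groups overlapped, while within the pairs the log2 differences were 1.15, 1.66 and 0.50. With the replicate number as a block, the log2 difference of 1.10 (SE 0.205) had an adjusted p of 0.0413 by limma with Benjamini-Hochberg adjustment. Without the block the SE was 0.494 and the limma adjusted p after Benjamini-Hochberg was 1.0. The FDG-increased library of the sham table alone, at 21.3 FPKM on that scale, lay below the FDG-decreased libraries at 46.4, 89.8 and 23.6.

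The block was used beside the plain fit because libraries of the same number shared their departures from the group mean (r of 0.85, 0.76 and 0.77 over genes in pairs 1 to 3). The labels do not say what a number stands for. By the lane in the sample names, both libraries of pair 1 were in lane 7 and both of pair 2 in lane 4, while pair 3 was split between lane 5 (FDG decreased) and lane 4 (FDG increased), so that number and lane cannot be told apart in pairs 1 and 2. All 3 sham libraries were in lane 7. The FDG-increased libraries of the sham table include those numbered 1 (lane 7) and 2 (lane 4) in the RYGB table. The lane of the remaining FDG-increased library cannot be told, so the extent to which group and lane coincide in the sham comparison is not known. Without the block, 0 of 33 genes were called by limma, where 0% of all 10739 genes were. At an unadjusted p under 0.05, 0 of 33 genes stood, where 1.02% of all genes did. With the block, limma called 1 of 33 higher with FDG decreased, where 0.447% of all genes were, and 0 of 33 lower, where 0.689% were. The Pdk4 call was kept in 3 of 7 other fits with a block (with a pseudocount of 0.1, without pair 2 and without pair 3), with limma adjusted p after Benjamini-Hochberg from 6.71e-11 to 0.277. It was lost at 0.083 with libraries shifted to the same median, at 0.0655 with quantile normalization and at 0.0839 with plain limma variances, and at 0.277 without pair 1, all as adjusted p of limma after Benjamini-Hochberg. The lowest value came without pair 3, where 2 pairs leave the error to be taken mostly from other genes.

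The promoter of Pdk4, from 250 bases before to 50 after its start, is shown because Pdk4 is the gene that passed with the block over all pairs. That of Pck1 is shown because it had the next lowest adjusted p, and that of Ldha for its wide range. They come from RefSeq on build GRCr8, which holds such entries for 30 of the 35 genes. Capitals mark any match to ACGTG, the core of the hypoxia response element, to CACGTG, the E-box read by MYC among others, which contains the former, to ACGTCA, part of the cyclic AMP response element, or to GTAAACA, a forkhead motif, each searched on both strands.
Pdk4, chr4:34568280-34568579, minus strand: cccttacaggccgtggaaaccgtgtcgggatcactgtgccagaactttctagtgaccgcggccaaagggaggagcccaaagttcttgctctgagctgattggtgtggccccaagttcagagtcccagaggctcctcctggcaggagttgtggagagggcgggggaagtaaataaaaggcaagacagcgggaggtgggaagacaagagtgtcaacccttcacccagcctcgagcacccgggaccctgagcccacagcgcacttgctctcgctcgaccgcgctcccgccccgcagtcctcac
Pck1, chr3:182348322-182348621, plus strand: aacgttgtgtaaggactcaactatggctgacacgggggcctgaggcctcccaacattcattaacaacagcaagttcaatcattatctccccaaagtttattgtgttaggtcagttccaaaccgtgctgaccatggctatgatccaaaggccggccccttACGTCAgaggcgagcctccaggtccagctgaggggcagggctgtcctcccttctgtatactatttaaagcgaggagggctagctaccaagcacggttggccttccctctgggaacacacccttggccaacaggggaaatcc
Ldha, chr1:106507842-106508141, plus strand: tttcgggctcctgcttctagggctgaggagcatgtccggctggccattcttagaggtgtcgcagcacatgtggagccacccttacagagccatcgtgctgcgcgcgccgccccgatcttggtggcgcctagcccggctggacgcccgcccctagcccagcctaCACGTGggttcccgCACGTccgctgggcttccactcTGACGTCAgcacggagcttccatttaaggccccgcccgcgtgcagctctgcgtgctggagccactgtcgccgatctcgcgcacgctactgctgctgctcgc
The window of Pdk4 holds none of the 4 motifs in these letters. Pck1 holds ACGTCA at -91 to -86 from the start, and Ldha holds CACGTG at -87 to -82, a further ACGTG on the other strand at -73 to -69, and ACGTCA at -49 to -44 within a palindrome. The 30 genes have 33 windows, as Aldoa and Eno1 have several starts. Of the 33 windows, 12 (36.4%) hold ACGTG, against 19.3% of 33469 rat promoters of the same length, and 3 (9.09%) hold CACGTG, against 6.42%. ACGTCA is in 3 windows (9.09%), against 7.94% of all promoters, and GTAAACA in 2 (6.06%), against 3.78%. A match describes letters and not a site in use.

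Pck1, Fbp1 and Gpt lay higher with FDG decreased in all 3 pairs but did not pass with the block over all 3 pairs. Pck1 stood at 198, 179 and 39.5 FPKM in FDG-decreased replicates 1 to 3 and at 148, 108 and 13.2 FPKM in FDG-increased replicates 1 to 3. Both libraries of pair 3 were far below the others, the groups overlapped, and the log2 differences within pairs were 0.42, 0.73 and 1.51. With the block the log2 difference was 0.89 (SE 0.197) and the adjusted p 0.0890 by limma with Benjamini-Hochberg adjustment. Fbp1 stood at 36.1, 40.2 and 14.7 FPKM with FDG decreased and at 23.9, 36.4 and 10.002 FPKM with FDG increased. Its log2 difference with the block was 0.41 (SE 0.147), with an adjusted p of 0.345 by limma and Benjamini-Hochberg. Gpt stood at 276, 140 and 100 FPKM with FDG decreased and at 227, 124 and 57.5 FPKM with FDG increased. The difference of Gpt with the block was 0.42 (SE 0.151), with an adjusted p of 0.353 by limma and Benjamini-Hochberg. Pair 3 was again the lowest for Fbp1 and Gpt in both groups. Without FDG-increased replicate 3 and without a block, the differences turned to -0.17 for Pck1, -0.08 for Fbp1 and -0.09 for Gpt. Fbp2, at 102, 130 and 58.4 FPKM with FDG decreased and 109, 127 and 50.5 FPKM with FDG increased, had a difference of 0.04 (SE 0.132) with the block. Enterocyte markers summed to 14380, 16770 and 6072 FPKM with FDG decreased and to 11240, 14460 and 4661 FPKM with FDG increased, on the sham scale, so that both libraries of pair 3 are low there too. Between the groups 5 of the 7 tested enterocyte markers were higher with FDG decreased, and Epcam and Lgals4 were lower. The part of enterocyte content in the values of the genes above was not tested.

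**Figure D5:**
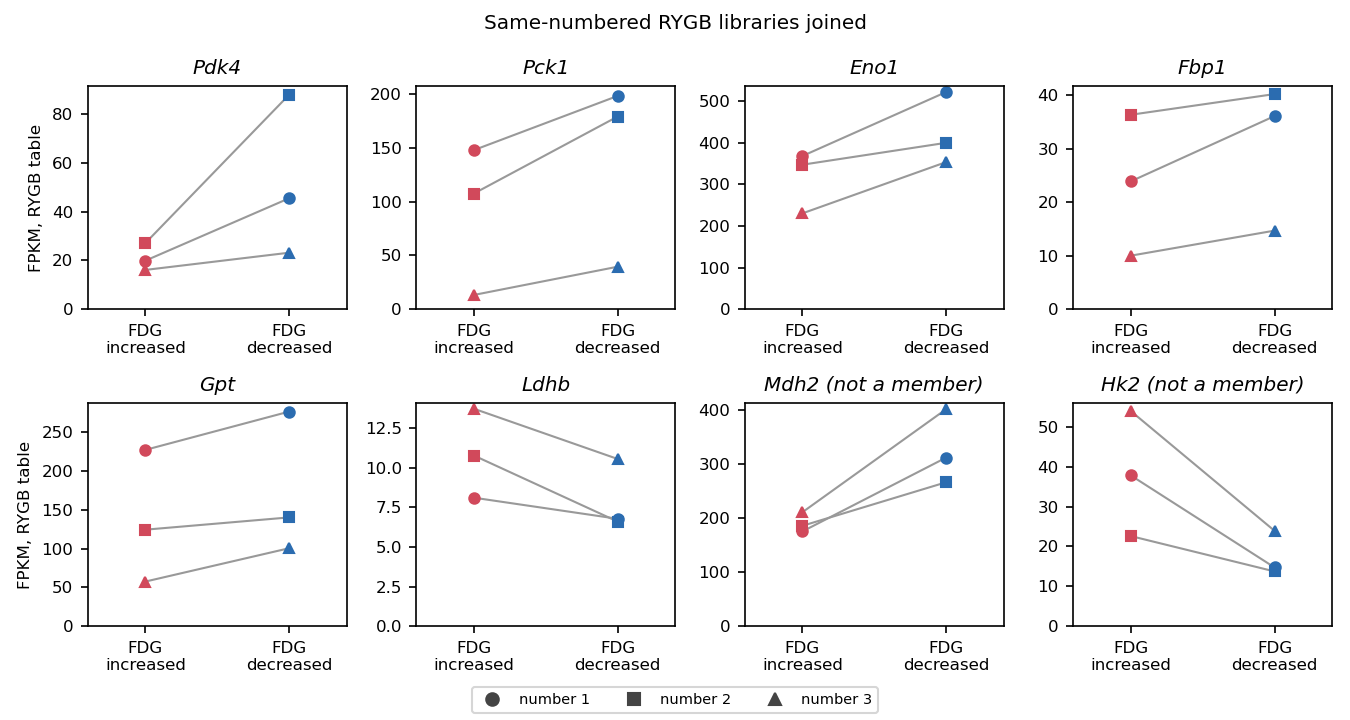
FPKM in the RYGB table of 6 genes of the list and of Mdh2 and Hk2, which are outside it, with lines joining the FDG-increased (red) and FDG-decreased (blue) libraries of the same replicate number (circle 1, square 2, triangle 3). All 3 lines rise for Pdk4, Pck1, Eno1, Fbp1, Gpt and Mdh2 and fall for Ldhb and Hk2.

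Of the glycolysis genes, Eno1 stood at 522, 400 and 354 FPKM with FDG decreased and at 368, 347 and 230 FPKM with FDG increased. It was higher in all 3 pairs, with a log2 difference of 0.44 (SE 0.138) and an adjusted p of 0.247 with the block by limma and Benjamini-Hochberg. The FDG-increased library of the sham table alone, at 359 FPKM there, lay just below the lowest FDG-decreased library at 361 on that scale. Gapdh, at 1095, 897 and 906 FPKM with FDG decreased and 921, 903 and 743 FPKM with FDG increased, differed by 0.18 (SE 0.135) with the block. Ldha stood at 412, 480 and 727 FPKM with FDG decreased and at 388, 467 and 470 FPKM with FDG increased, a difference of 0.25 (SE 0.152). Ldhb ran the other way, with 6.77, 6.598 and 10.5 FPKM against 8.10, 10.8 and 13.7 FPKM. Lower in all 3 pairs, it had a log2 difference of -0.40 (SE 0.156) and an adjusted p of 0.402 with the block by limma and Benjamini-Hochberg. Aldoa, Tpi1, Pkm, Pgam1 and Pfkp overlapped between the groups, with log2 differences from -0.17 for Pfkp to 0.11 for Pgam1. Aldoa stood at 356, 270 and 399 FPKM against 384, 309 and 354 FPKM, and Tpi1 at 289, 336 and 263 FPKM against 259, 355 and 241 FPKM. Pkm stood at 225, 167 and 190 FPKM against 245, 206 and 124 FPKM, and Pfkp at 48.0, 72.8 and 42.2 FPKM against 53.0, 74.8 and 53.5 FPKM. Pgam1 stood at 116, 109 and 141 FPKM against 114, 125 and 100 FPKM.

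Over the list, 23 genes were higher and 10 lower with FDG decreased, with a median log2 difference of 0.07 against 0.02 over all genes and single differences from -0.43 for Pfkfb3 to 1.10 for Pdk4. That count became 14 higher and 19 lower without FDG-increased replicate 3, and likewise 14 and 19 without both libraries of pair 3. Without FDG-decreased replicate 3 alone it was 22 and 11, so it rests on FDG-increased replicate 3. Without both libraries of pair 2 the count was 30 and 3. At an unadjusted p under 0.05 with the block, 5 genes were higher (Eno1, Pdk4, Fbp1, Pck1 and Gpt), where 4.81% of all genes were, and 1 was lower (Ldhb), where 4.70% were. All 3 pairs were higher for 8 of 33 genes, the 5 named and Ldha, Pdk2 and Got1, where 17.2% of all genes were. Got1 is the cytosolic aspartate aminotransferase. All 3 pairs were lower for 2 of 33, Pfkp and Ldhb, where 12.7% of all genes were. Pdk2, a widely expressed pyruvate dehydrogenase kinase, was the single gene whose groups did not overlap, at 10.8, 9.33 and 9.23 FPKM against 8.99, 9.09 and 7.62, where 3.20% of all genes did not overlap. Its log2 difference was 0.17 (SE 0.15) with the block.

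The replicate number accounted for more of the variation among RYGB libraries than the group did. Of the sum of squares of a gene it held a median of 81.5% over the list and 86.1% over all genes, and the group held 4.67% and 2.78%. Rpe was the clearest case, at 56.6, 215 and 78.4 FPKM with FDG decreased and 51.9, 177 and 82.8 FPKM with FDG increased, with 98.6% of its sum of squares held by the number. Pgk1, phosphoglycerate kinase, was likewise high in pair 2, at 369 and 286 FPKM, and at 145 to 189 FPKM in the other libraries. Pdk4 and Pdk2 were the genes with the largest share held by the group, 47.4% and 43.5%. None of the 5 tested pentose phosphate genes was called between the RYGB groups, with log2 differences from -0.03 to 0.11. Taldo1 stood at 208, 211 and 177 FPKM against 217, 228 and 169 FPKM, and Tkt at 203, 147 and 188 FPKM against 194, 180 and 161 FPKM.

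Markers of gut position and of acute stimulation also moved between these groups. All 5 measured markers of the proximal intestine were higher with FDG decreased (median log2 difference 1.795, with Lct and Gip called by limma with the block), and none of them was at 0 throughout. Their summed level was 7961, 6230 and 3578 FPKM with FDG decreased and 4858, 5362 and 1378 FPKM with FDG increased, in replicates 1 to 3 on the sham scale. All 5 measured distal ileum markers were lower with FDG decreased (median -0.42, none called by limma with the block), with sums of 16490, 19660 and 5740 FPKM against 19870, 24580 and 7814 FPKM. All 7 immediate-early genes were lower with FDG decreased (median -2.42, 4 of them called by limma with the block), with sums of 254.7, 90.9 and 85.5 FPKM against 1028, 407 and 173 FPKM. In all 3 pairs the proximal sum was thus higher and the distal and immediate-early sums lower with FDG decreased, beside the higher Pdk4 and Pck1. The part of these lists in those values was not tested. Most of the proximal sum was Fabp1, at 7934, 6215 and 3532 FPKM with FDG decreased. Most of the distal sum was Fabp6, at 15842, 18144 and 5516 FPKM there. The enterocyte sum was also higher in all 3 pairs, but of its 7 tested markers 5 were higher and 2 lower (median 0.15). Epcam and Lgals4 were lower with FDG decreased in all 3 pairs. Fabp2 was the largest part of the enterocyte sum, at 7774, 9466 and 3048 FPKM with FDG decreased. In pair 2, Cck was lower with FDG decreased (2.3997 against 4.003 FPKM) and Slc10a2 higher (593.65 against 578.32). In pair 3, Fgf19 was higher (7.4822 against 3.5307). All other proximal and distal markers moved with their sums in all 3 pairs. In the lane 4 libraries alone, 1 FDG-decreased against 2 FDG-increased, the log2 difference of Pdk4 was 2.02 with a limma adjusted p of 1.0 after Benjamini-Hochberg adjustment, a fit in which the lone library is assumed as variable as the others.

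Among 39 tested genes of the same pathways outside the list, 0 were called in FDG-increased against sham ileum by limma, where 0.0370% of all genes were. Between the RYGB groups without the block, 0 of 39 were called, where 0% of all 10739 genes were. With the block, 2 were called higher with FDG decreased, where 0.447% of all genes were, and 1 lower, where 0.689% were. The values of these 3 genes that follow are from the fit with the block. Mdh2, the mitochondrial malate dehydrogenase, stood at 312, 266 and 401 FPKM with FDG decreased and at 175, 186 and 211 FPKM with FDG increased. Its groups did not overlap, and the log2 difference was 0.76 (SE 0.137) with an adjusted p of 0.0282 by limma and Benjamini-Hochberg. G6pc, the catalytic subunit of glucose 6-phosphatase, which releases free glucose, stood at 5.98, 19.5 and 1.26 FPKM against 0.819, 3.32 and 0.0686 FPKM. It was higher in all 3 pairs, with a log2 difference of 1.76 (SE 0.225) and an adjusted p of 0.00555 by limma and Benjamini-Hochberg. The groups overlapped, and the FDG-increased library of the sham table alone, at 4.92 FPKM on that scale, lay inside the FDG-decreased range of 1.29 to 19.9 FPKM. Hk2, the insulin-responsive hexokinase that traps glucose and FDG in cells, stood at 14.7, 13.7 and 23.9 FPKM with FDG decreased and at 37.8, 22.6 and 53.9 FPKM with FDG increased. It was lower in all 3 pairs, with a log2 difference of -1.04 (SE 0.157) and an adjusted p of 0.0111 by limma and Benjamini-Hochberg. Here too the groups overlapped, and the FDG-increased library of the sham table alone, at 19.7 FPKM on that scale, lay inside the FDG-decreased range of 14.0 to 24.4 FPKM. Slc2a1, the glucose transporter GLUT1, was also lower in all 3 pairs, with a log2 difference of -0.46 (SE 0.164), and did not pass, with an adjusted p of 0.346 by limma and Benjamini-Hochberg. The last of these genes, chosen after its values were seen, stood at 6.29, 5.33 and 10.4 FPKM against 9.53, 9.21 and 11.7 FPKM.

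FDG-decreased and sham libraries lie in separate tables, so their values are set side by side on the sham scale, with no test. Pdk4 stood at 46.4, 89.8 and 23.6 FPKM with FDG decreased, within or above the sham values of 49.5, 63.4 and 12.8. Pck1 stood at 203, 183 and 40.3 FPKM, against 151, 81.5 and 50.3 FPKM in sham ileum. Eno1 stood at 534, 409 and 361 FPKM, all above sham replicates 2 and 3 at 234 and 212 and all below sham replicate 1 at 888. The same position, between sham replicate 1 and the other sham libraries, was taken by Gapdh at 1119, 917 and 926 FPKM and by Ldha at 421, 491 and 743 FPKM. The median log2 difference of the list, FDG-decreased minus sham, was 0.08, and 0.38 without sham replicate 1. No median over all genes is set beside these values, so they cannot be read as a trait of the list. For FDG-increased against sham ileum without sham replicate 1, the median over all genes was itself 0.15.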

How the data were processed

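Flash-frozen ileum gave stranded total RNA libraries depleted of ribosomal RNA, per the labels' protocols. The submitters' processing notes list bcl2fastq 1.8.4, STAR 2.6.0a, Cufflinks 2.2.1, Cuffdiff and DESeq2 1.24.0 without roles, and hg19, a human build, although symbols are those of rat, so no coordinates come from the tables. The authors deposited 2 tables of FPKM, each with a scaling of its own. Here log2(FPKM + 1) was tested where a gene averaged 1 FPKM or more in a table, with limma 3.58.1 in R 4.3.3 (trend and robust variances, Benjamini-Hochberg adjustment over all genes, threshold 0.05), which was checked on simulated data. This scale understates changes of low genes. No test crossed tables, and the libraries common to both gave the factor 1.0217 between them. Symbols that read as dates, 25 in each case, were left out. RYGB libraries are paired by the replicate numbers of the RYGB table, with correlated deviations of 0.85, 0.76 and 0.77. Gapdh and other abundant glycolytic genes have processed pseudogene copies, so their levels are uncertain where reads were shared. Genes and lists were chosen with earlier results of these data known. Genes given in full are those called, those not overlapping with a log2 difference of at least 0.5, the 5 of highest mean and the leading isozymes (1 step is not reported here), while Fbp1, Gpt, Ldhb, Pfkfb3, Pdk2, Slc16a3, Rpe, Pgk1, Taldo1, Tkt and the genes outside the list were chosen after their values were seen. Alternatives were another pseudocount, filter, scaling or variance model, the block, and single libraries left out.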

Additional observations from a re-analysis of the deposited data

How the results depend on the processing

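No member was called in FDG-increased against sham ileum under any of the 12 alternatives run, the replicate block included. The count of all genes called there, 4, was 39 with the replicate block, 1 with a pseudocount of 0.1 or with libraries at the same median, 0 with no filter or quantile normalization, and 0 to 13 with 1 library left out. Same-numbered libraries of that table did not deviate together (0.35, -0.50 and -0.25), so the block has no footing there. For FDG-decreased against FDG-increased ileum, 0 genes became 122 with the replicate block and 0 to 1 with 1 library left out. With the block and a further change, added after seeing the data, the counts were 39, 370 and 345 without pair 1, 2 or 3, 101 at the same median, 90 with quantile normalization, 123 with a pseudocount of 0.1 and 72 with plain limma variances, and lane 4 alone gave 11. Members called were 1 with the block, 1 with the block and a pseudocount of 0.1, 1 without pair 3, and 3 without pair 2 (Pdk4, Eno1 and Gpt). The 14 changes of direction were all in differences that no test called. Against sham, Ldha ran from -1.12 to 0.234 with 1 library left out, positive without sham replicate 1. There Eno1 became -0.088 at the same median, -0.45 with quantile normalization, and -0.326 to 0.703 with 1 library left out, and Gapdh became -0.0791, -0.542, and -0.256 to 0.588. Between the RYGB groups the ranges with 1 library left out and no block were -0.167 to 1.63 for Pck1, -0.0808 to 0.849 for Fbp1 and -0.0945 to 0.887 for Gpt. They were negative without FDG-increased replicate 3, where its FDG-decreased partner stays in the fit. With the block all 3 genes stayed positive in every fit. The causes were not tested. A fit to lane 7 alone was not run, as the lanes of some sham-table columns cannot be told and the RYGB table has 1 library a group there. FPKM carries no counts, so no counting interval can be given.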
